A study of Mus musculus with 8 samples.

Results

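Endothelial cells line the vessels and the chambers of the heart, and a set of 46 mouse genes that mark them, pattern them through Notch, and keep vessels stable was followed after loss of *Hdac3*. HDAC3 is a histone deacetylase, an enzyme that removes acetyl groups from histones within corepressor complexes. The members were taken by symbol from a fixed list of surface markers, the angiopoietin-Tie system, the caveolins, the cerebral cavernous malformation (CCM) complex, the Notch pathway, vasoactive and anticoagulant genes, and transcription factors. Of the 46 members, 22 had a row in the deposited table of 8278 genes. The other 24 had no row, and the table holds only genes that the authors' own test of this same contrast selected, so that for these 24 neither a level nor a difference is given here.

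Bulk RNA-Seq compared 4 libraries of *Hdac3* KO MCECs with 4 libraries of EV MCECs. MCECs are a mouse cardiac endothelial cell line, grown in DMEM with fetal bovine serum. KO cells were made as a stable line with a lentivirus that carried Cas9 and an *Hdac3* guide RNA, and control (CTL) cells received an empty vector lentivirus, so that both groups had been through lentiviral transduction. The labels give a replicate number and no separate culture or clone for each library, and the p-values below measure only the spread between these libraries, which may be technical. The library totals, recovered from the deposited values, lay between 15775327 and 21262575 reads in EV and between 19356714 and 22255684 in KO libraries. *Hdac3* transcript was lower in KO MCECs (log2 fold change -0.45, standard error [SE] 0.04), at 1465 to 1558 normalized counts against 1943 to 2147, and the groups did not overlap. The paper reports the deletion from western blot, a measure of protein, which these counts do not give.

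Endothelial identity in vivo rests on junction and surface proteins such as CD31, on the receptor tyrosine kinases that read angiopoietins and VEGF, and on ETS family transcription factors that hold the program in place. The angiopoietin receptor TIE2 and the CCM complex, which the transmembrane protein HEG1 brings to cell junctions, are known for keeping vessels quiescent and tight. In the Notch pathway, a ligand on one cell (the Jagged and Delta-like proteins) releases the intracellular part of a receptor on its neighbour, and this part joins the DNA-binding protein RBPJ to switch on the repressors of the HES and HEY families.

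The label of the line was set against 13 defining endothelial markers. Of these, 7 had no row (*Cdh5*, *Tie1*, *Vwf*, *Emcn*, *Erg*, *Fli1* and *Esam*). The other 6 had a row, and their levels in EV MCECs were very different. Levels are in FPKM, a unit scaled to the length of the gene and the depth of the library. FPKM carries no TMM factor, the correction for library composition that the log2 fold changes have. Leaving this factor out moved the median log2 fold change over all genes by -0.12, so EV and KO levels in FPKM are on another scale than the fold changes. *Cd34* stood at 94.3 FPKM, *Flt1* at 2.67, *Egfl7* at 2.31, *Tek* at 0.78, *Kdr* at 0.39 and *Pecam1* at 0.008. Of these 6, 3 reached 1 FPKM (*Cd34*, *Flt1* and *Egfl7*), with *Cd34* far above the others, and *Pecam1*, the gene of CD31, was close to the floor. Of 12 fibroblast and mesenchyme markers, 6 had a row, with *Col3a1* at 742 FPKM, *Fbln2* at 376, *Col1a1* at 373 and *Dcn* at 351 in EV MCECs, and their summed level was 1863 to 1918 FPKM in EV and 1371 to 1406 in KO libraries; *Col1a1* was higher in KO MCECs (log2 fold change 0.23) and the other 5 were lower. Of 12 smooth muscle and pericyte markers, 5 had a row, with a summed level of 32.5 to 38.7 FPKM in EV and 8.26 to 9.63 in KO libraries, where *Des* was higher (log2 fold change 1.62) and the other 4 were lower. The epithelial list summed to 304 to 317 FPKM in EV and 344 to 357 in KO libraries (4 of 8 with a row). Nearly all of this was *Krt19* (304 FPKM in EV and 344 FPKM in KO MCECs), and *Krt7* went the other way, from 5.18 to 2.13 FPKM (log2 fold change -1.16). The blood and macrophage list summed to 5.62 to 5.89 and 11.4 to 13.0 (2 of 11). Nearly all of this was *Cd68* (5.70 FPKM in EV and 12.1 FPKM in KO MCECs). The cardiomyocyte list was *Nppb* alone (1 of 10), at 0.41 to 1.14 and 1.04 to 1.66, and its EV and KO libraries overlapped. The part of these differences in the results on the members was not tested, and in bulk RNA fewer cells of a type and less RNA per cell cannot be told apart.

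Among the 22 members with a row, 9 were lower and 12 were higher in KO MCECs at an adjusted p under 0.01, and *Notch1* did not pass. The table was selected on this contrast, so these counts describe the members and are no support for a change of the group: 96.7% of all 8278 genes passed, 49.6% lower and 47.1% higher. The members' median log2 fold change was 0.13, beside 0.06 over all genes. Most of the differences were small, and 13 of the 22 lay within 0.5 of 0 on the log2 scale, 12 of them past the cut-off, where 58.2% of all genes passed and lay within this range. Those lower by more than 1 were *Cd93* and *Tek* (8.36% of all genes), and the member higher by more than 1 was *Pecam1* (4.43% of all genes), which rested on very few reads. The KO and EV libraries did not overlap for 19 members, 9 with every KO library below and 10 with every KO library above the EV libraries, where 91.1%, 46.6% and 44.4% of all genes did so. Overlap was seen for *Krit1*, *Notch1* and *Notch2*.

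**Figure D1:**
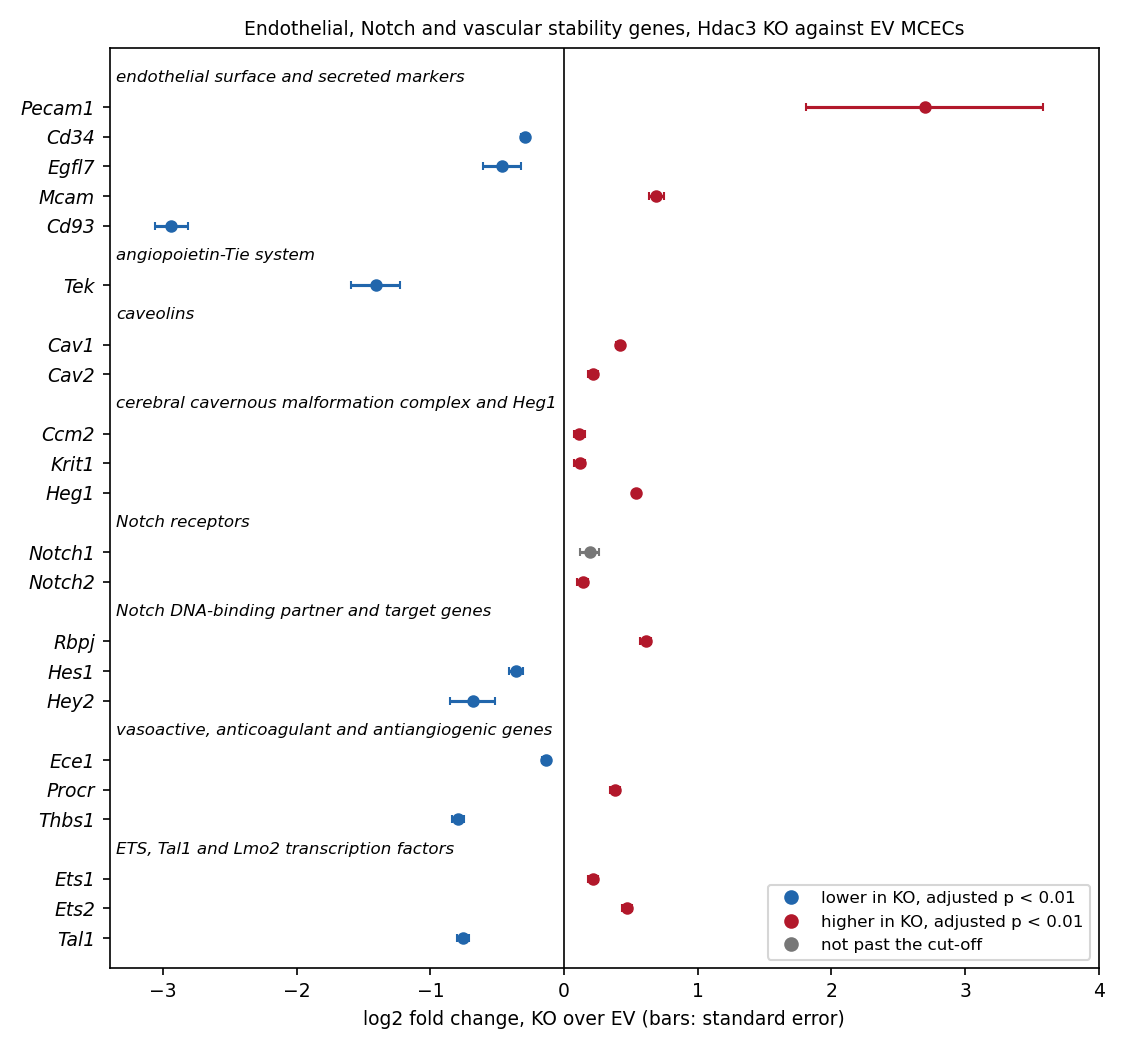
Log2 fold change of KO over EV MCECs (x axis) for the 22 members with a row, grouped by role; points are edgeR estimates, bars standard errors, and colour gives the call at adjusted p < 0.01. *Cd93* (-2.94) and *Tek* (-1.41) lie far to the left, *Pecam1* (2.70) lies to the right with the widest bar, and the other members lie within 1 of 0.

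Levels differed widely within the set. Per length, *Cav1* (95.9 FPKM ± 3.32, SD, n = 4) and *Cd34* (94.3 ± 0.86) led in EV MCECs and did not differ beyond their spread, followed by *Heg1* (49.4 ± 0.64), *Ece1* (43.1 ± 1.68) and *Procr* (40.9 ± 1.87). The libraries of *Ece1* and *Procr* overlapped. *Ccm2* (30.5 ± 0.86) and *Cav2* (29.8 ± 0.88) did not differ beyond it, and *Hes1* followed at 21.5 ± 0.88. *Ets1*, *Ets2*, *Thbs1* and *Tal1* lay between 10.8 and 17.7 FPKM. *Notch2* (9.54 ± 0.63), *Krit1* (9.52 ± 0.56) and *Rbpj* (8.98 ± 0.34) could not be ordered within their spread, and *Mcam* was at 6.96 ± 0.23. At the low end stood *Egfl7* (2.31 ± 0.19), *Cd93* (2.03 ± 0.17), *Notch1* (1.87 ± 0.17), *Hey2* (1.17 ± 0.07), *Tek* (0.78 ± 0.15) and *Pecam1*. Thus 20 of the 22 reached 1 FPKM in EV MCECs, and the summed level of the 22 was 502 to 515 FPKM in EV and 513 to 524 FPKM in KO libraries.

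**Figure D2:**
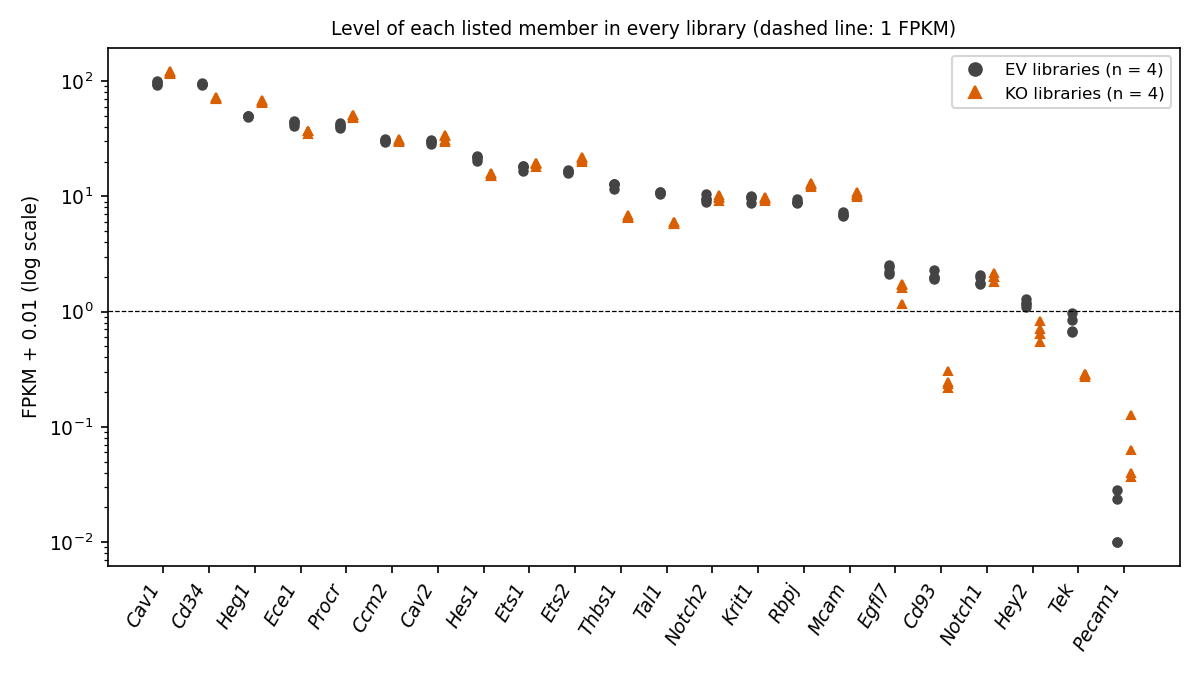
FPKM plus 0.01 on a log scale (y axis) for each of the 22 members in each of the 4 EV (circles) and 4 KO (triangles) libraries, ordered by mean level in EV MCECs; the dashed line marks 1 FPKM. *Cav1*, *Cd34* and *Heg1* sit at the top in both groups, while *Cd93* drops from 2.03 to 0.24 FPKM and *Pecam1* stays far below 1 FPKM in all 8 libraries.

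Among the surface and secreted markers, 5 of 10 had a row, and they moved in both directions. *Cd93* encodes a C-type lectin-like receptor of endothelial and myeloid cells that binds matrix proteins (ENSMUSG00000027435, mm10 chromosome 2, 148436640 to 148443563, minus strand). It gave 244, 288, 249 and 239 normalized counts in the EV libraries and 28.4, 40.3, 32.0 and 30.9 in the KO libraries. The lowest EV library was thus far above the highest KO library. Its mean fell from 255 ± 22.0 to 32.9 ± 5.13 (SD, n = 4). The fitted difference was 7.67-fold, with a log2 fold change of -2.94 (SE 0.12, adjusted p = 2.6e-21). *Cd93* was the member with the largest fall, and no exon of another annotated gene overlaps it in GENCODE M21.

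*Cd34*, a sialomucin of endothelial and progenitor cells, fell by far less. Its normalized counts were 4633, 4662, 4577 and 4707 in EV and 3729, 3758, 3778 and 3866 in KO libraries, so that the groups lay well apart although the log2 fold change was only -0.30 (SE 0.03, adjusted p = 3.3e-12). The 4 libraries of each group differed by little, with a coefficient of variation of 1.17% in EV and 1.57% in KO MCECs. *Mcam* (CD146), an adhesion molecule of endothelial cells and pericytes, rose instead, from 375, 396, 386 and 408 to 629, 601, 667 and 634 normalized counts. All KO libraries exceeded all EV libraries, and the log2 fold change was 0.69 (SE 0.06, adjusted p = 1.6e-13). *Egfl7*, a secreted factor of endothelial cells whose gene hosts *Mir126a*, fell from 80.8 ± 6.26 to 58.5 ± 9.99 (log2 fold change -0.47, SE 0.14, adjusted p = 0.0031). The highest KO library (65.2) was below the lowest EV library (74.5), but the adjusted p became 0.013 without EV replicate 3 and 0.027 without KO replicate 2. The call of *Egfl7* was also lost when adjusted over 30000 genes. Exons of neighbouring genes overlap 9.41% of its exonic bases on the same strand and 3.41% on the opposite strand, and since counting is not stated to use strand, reads of *Egfl7* and of these neighbours cannot be told apart there.

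*Pecam1* gave 1, 0, 0 and 1 reads in the EV libraries and 2, 9, 2 and 4 reads in the KO libraries. Summed over libraries and scaled by depth, the KO to EV ratio was 7.80 (95% exact interval 1.85 to 69.6, which covers counting error only), so that CD31 transcript was at the detection limit in both groups. The call (adjusted p = 0.0049) was lost under DESeq2 (0.018) and when adjusted over 30000 genes (0.018). It was also lost without EV replicate 2 (0.016), EV replicate 3 (0.018) or KO replicate 2 (0.045).

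In the angiopoietin-Tie system, the receptor gene had a row and *Tie1*, *Angpt1* and *Angpt2* had none. *Tek* encodes TIE2, the receptor tyrosine kinase for angiopoietins (mm10 chromosome 4, 94739289 to 94874976, plus strand). Its normalized counts were 57.0, 84.4, 58.5 and 72.7 in EV and 26.3, 25.6, 24.5 and 26.3 in KO libraries. Every KO library lay below every EV library, and the EV libraries spread more widely (SD 13.0) than the KO libraries (SD 0.85). *Tek* fell by 1.41 on the log2 scale (SE 0.18, adjusted p = 1.1e-08), which was 2.66-fold lower, at a level of 0.78 FPKM in EV and 0.27 FPKM in KO MCECs. *Ptprb*, which encodes the endothelial phosphatase VE-PTP that acts on TIE2, is no member but is on the list of partners described below; it fell by 1.06 on the log2 scale (SE 0.06), from 801 ± 49.0 to 383 ± 20.8 normalized counts.

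**Figure D3:**
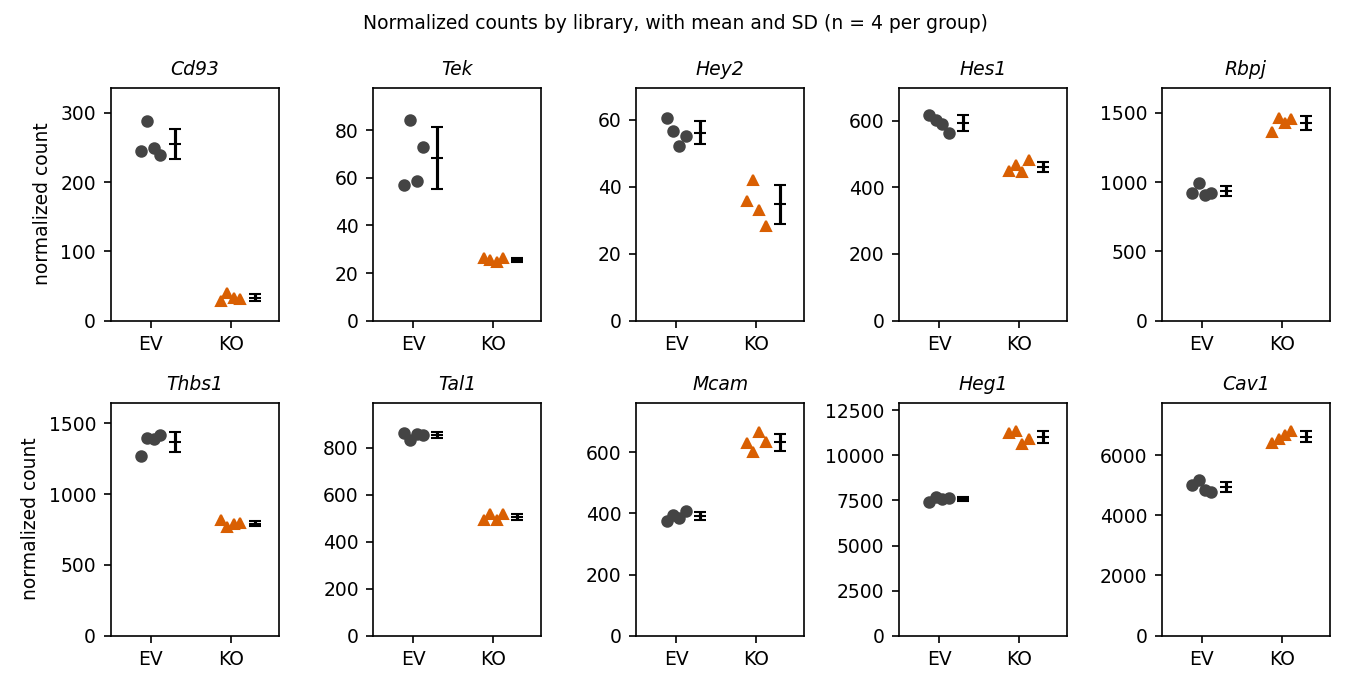
Normalized counts (y axes, from 0) of 10 members in each EV (circles) and KO (triangles) library; bars beside the points give the mean and SD, n = 4 per group. In each panel the 4 KO libraries lie entirely below (*Cd93*, *Tek*, *Hey2*, *Hes1*, *Thbs1*, *Tal1*) or entirely above (*Rbpj*, *Mcam*, *Heg1*, *Cav1*) the 4 EV libraries.

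Caveolins are the membrane proteins that coat caveolae, flask-shaped pits that are dense on endothelial cells. Both caveolin members had a row and both rose. *Cav1* went from 5003, 5163, 4847 and 4778 normalized counts in the EV libraries to 6410, 6530, 6674 and 6813 in the KO libraries, with a log2 fold change of 0.42 (SE 0.03, adjusted p = 1.9e-15). *Cav2*, whose product assembles with caveolin-1, went from 1575, 1541, 1527 and 1476 to 1722, 1659, 1881 and 1846, with a log2 fold change of 0.22 (SE 0.04, adjusted p = 3.5e-06). For both genes the lowest KO library was above the highest EV library. Without the TMM factors the value of *Cav2* became 0.10 (adjusted p = 0.015), whereas *Cav1* kept its call. Both genes lie on the plus strand of mm10 chromosome 6, *Cav2* at 17281185 to 17289115 and *Cav1* at 17306335 to 17341452, 17219 bases apart. The promoters of this neighbouring pair are shown because the pair rose together. They are RefSeq windows of GRCm38.p6 from 250 bases before to 50 bases after a transcript start, *Cav1* at chr6:17306085-17306384 and *Cav2* at chr6:17280935-17281234, both on the plus strand, 5′ to 3′, with capitals for TGGGAA, the core letters bound by RBPJ, on either strand.
Cav1: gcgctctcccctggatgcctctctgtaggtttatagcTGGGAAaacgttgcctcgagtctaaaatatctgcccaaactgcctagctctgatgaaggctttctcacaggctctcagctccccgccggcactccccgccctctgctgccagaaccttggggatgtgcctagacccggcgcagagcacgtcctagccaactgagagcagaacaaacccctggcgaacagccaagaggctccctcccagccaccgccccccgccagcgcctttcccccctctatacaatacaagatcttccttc
Cav2: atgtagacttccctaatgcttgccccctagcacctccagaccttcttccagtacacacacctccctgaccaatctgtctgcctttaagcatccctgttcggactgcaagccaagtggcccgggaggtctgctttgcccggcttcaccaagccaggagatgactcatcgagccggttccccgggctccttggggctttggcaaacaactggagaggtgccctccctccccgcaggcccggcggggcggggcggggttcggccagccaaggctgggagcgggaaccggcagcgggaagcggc
The *Cav1* window shown holds these letters once, with the first base at position -213 from the start. A window at a second *Cav1* start (chr6:17307390-17307689) and the *Cav2* window do not hold them.

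The CCM genes encode the scaffold proteins of a complex whose loss leaves dilated and leaky vessels. *Ccm2* and *Krit1* had a row and *Pdcd10* had none. Their differences were the smallest of the set: *Ccm2* was at 1065 ± 28.6 normalized counts in EV and 1153 ± 31.4 in KO MCECs (log2 fold change 0.11, SE 0.04, adjusted p = 0.0064), and *Krit1* at 1093 ± 61.6 and 1181 ± 37.5 (0.12, SE 0.04, adjusted p = 0.0091). Neither call was firm. The EV and KO libraries of *Krit1* overlapped, and without the TMM factors both values came to within 0.01 of 0. *Krit1* also lost its call when any of EV replicates 2 and 4 or KO replicates 2, 3 and 4 was left out, and *Ccm2* without EV replicate 2 or 3 or KO replicate 1 or 3.

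*Heg1* encodes the transmembrane partner of KRIT1. The EV libraries had 7408, 7690, 7562 and 7638 normalized counts and the KO libraries 11236, 11333, 10610 and 10924. *Heg1* rose by 0.54 on the log2 scale (SE 0.03, adjusted p = 1.6e-19), 1.46-fold, with KO libraries entirely above EV libraries, and 0.42 remained without the TMM factors. The gene spans 33684466 to 33771576 on the plus strand of mm10 chromosome 16.

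Partners of these genes were read from a list of 22 further genes (CCM complex partners, angiopoietin-like proteins, TIE2 modulators and caveola coat proteins), of which 14 had a row. Of these, 7 were lower, 6 were higher and *Ehd2* did not pass, where 49.6% of all genes were lower and 47.1% higher. Their median log2 fold change was -0.10, beside 0.06 over all genes. Among those whose mean reached 100 normalized counts in either group, the lowest were *Angptl2* (-1.12, SE 0.12), which encodes a secreted angiopoietin-like protein, *Ptprb*, and *Prkcdbp* (-0.79, SE 0.05), the older symbol of *Cavin3*, and the highest were *Angptl6* (1.54, SE 0.11), *Pacsin2* (0.40, SE 0.03), whose product bends membranes at caveolae, and *Rap1b* (0.17, SE 0.03), a small GTPase upstream of KRIT1, which lost its call without the TMM factors. *Angptl4*, below this level and named after its value was seen, had a log2 fold change of 2.58 (adjusted p = 1.2e-08) at 0.08 FPKM in EV and 0.47 FPKM in KO MCECs. Of the other caveola coat genes, *Sdpr* (*Cavin2*) fell by 0.53 on the log2 scale, and *Ptrf* (*Cavin1*) had a log2 fold change of 0.10, smaller than the shift of all genes between the scalings given below.

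For Notch, the members fall into receptors, ligands, the DNA-binding partner and target genes. Of 4 receptors, *Notch1* and *Notch2* had a row. *Notch1* gave 310, 353, 305 and 367 normalized counts in EV and 386, 417, 382 and 345 in KO libraries, and the groups overlapped (log2 fold change 0.19, SE 0.07, 95% interval 0.05 to 0.33, adjusted p = 0.011). It passed the cut-off without EV replicate 2 (adjusted p = 0.0077), EV replicate 4 (0.0033) or KO replicate 4 (0.0027), and with the authors' size factors (log2 fold change 0.22, adjusted p = 0.0044) or those of DESeq2 (0.20, adjusted p = 0.0066). Exons of 2 genes overlap 9.76% of its exonic bases on the opposite strand. *Notch2*, the receptor with more transcript per length, went from 1883 ± 130 to 2073 ± 110 (log2 fold change 0.14, SE 0.04, adjusted p = 0.0018). Its libraries overlapped too, and its call was lost without EV replicate 1 (adjusted p = 0.016). None of the 4 ligand genes *Jag1*, *Jag2*, *Dll1* and *Dll4* had a row.

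Among the members downstream of the receptors, the DNA-binding partner and the targets with a row went in opposite directions. *Rbpj* (mm10 chromosome 5, 53555779 to 53657445, plus strand) had 921, 991, 909 and 921 normalized counts in the EV libraries and 1359, 1466, 1427 and 1454 in the KO libraries. It rose 1.53-fold, with a log2 fold change of 0.61 (SE 0.04, adjusted p = 6.5e-16). *Hes1*, a helix-loop-helix repressor and a canonical Notch target, was at 616, 602, 591 and 562 normalized counts in EV and 450, 466, 447 and 481 in KO libraries. *Hes1* fell by 0.36 on the log2 scale (SE 0.05, adjusted p = 2.2e-07), and all its KO libraries were below all its EV libraries. *Hey2*, a repressor tied to arterial fate, was scarce, at 60.5, 56.6, 52.2 and 55.0 normalized counts in EV and 35.8, 42.1, 33.0 and 28.1 in KO libraries. It fell 1.61-fold (log2 fold change -0.68, SE 0.17, adjusted p = 0.00042), again with no overlap. The targets *Hey1* and *Heyl* had no row.

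The promoters of *Rbpj* and *Hey2* are shown because the partner and this target moved apart, and because the RBPJ core letters occur in both. They are RefSeq windows of GRCm38.p6 of the same span, *Rbpj* at chr5:53590096-53590395 on the plus strand and *Hey2* at chr10:30842734-30843033 on the minus strand, each written 5′ to 3′ along its gene, with TGGGAA or its reverse complement in capitals.
Rbpj: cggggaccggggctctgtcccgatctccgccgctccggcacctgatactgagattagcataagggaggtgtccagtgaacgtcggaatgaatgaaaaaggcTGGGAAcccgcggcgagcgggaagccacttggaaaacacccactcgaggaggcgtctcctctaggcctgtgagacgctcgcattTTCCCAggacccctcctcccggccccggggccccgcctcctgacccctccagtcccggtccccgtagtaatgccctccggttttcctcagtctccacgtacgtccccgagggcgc
Hey2: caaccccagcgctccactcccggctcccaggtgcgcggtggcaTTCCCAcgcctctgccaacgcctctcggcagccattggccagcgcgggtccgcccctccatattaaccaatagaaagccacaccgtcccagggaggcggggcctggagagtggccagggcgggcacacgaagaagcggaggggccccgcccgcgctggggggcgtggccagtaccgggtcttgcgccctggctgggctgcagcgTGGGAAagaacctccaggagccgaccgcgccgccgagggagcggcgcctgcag
In the *Hey2* window the letters begin at -3 on the gene's strand and at -207 on the other strand, and in the *Rbpj* window shown at -149 on the gene's strand and at -65 on the other. A window at a second *Rbpj* start (chr5:53590236-53590535), which overlaps the first, holds them once, at -205 on the other strand. Over the members, 27 windows were available for 17 of the 22, and 9 windows of 8 members (*Cav1*, *Ccm2*, *Ece1*, *Egfl7*, *Heg1*, *Hey2*, *Rbpj* and *Tal1*) held TGGGAA, beside 25.6% of all 32851 windows of this length. The letters CGGAAG, an ETS core, were in 6 windows of 5 members (*Ccm2*, *Ece1*, *Krit1*, *Notch2* and *Procr*), beside 16.9% of all windows. A match is a run of letters and not a measured binding site, and the members that hold TGGGAA include genes that were lower and genes that were higher in KO MCECs.

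The rest of the pathway was read from a list of 44 genes for Notch processing, glycosylation, ubiquitylation and nuclear cofactors, of which 27 had a row. In KO MCECs 19 of them were lower, 6 were higher and 2 did not pass, where 49.6% of all genes were lower and 47.1% higher. Their median log2 fold change was -0.56, beside 0.06 over all genes, in a table selected on this contrast. Among genes with at least 100 normalized counts, the lowest were *Dtx3l* (-1.19, SE 0.07), a Deltex family ubiquitin ligase gene, *Neurl1b* (-0.98, SE 0.08), whose product ubiquitylates Notch ligands, and *Lfng* (-0.94, SE 0.07), the Fringe enzyme that sets which ligands a receptor answers to. The highest were *Spen* (0.57, SE 0.04), an RBPJ corepressor, *Fbxw7* (0.26, SE 0.07), which marks the Notch intracellular part for degradation, and *Dtx2* (0.23, SE 0.04). *Fbxw7* and *Dtx2* lost their calls without the TMM factors (adjusted p = 0.056 and 0.012), and the number that was higher became 3. *Adam10*, which encodes the protease that cleaves ligand-bound receptors at the surface, was at 104 FPKM in EV and 64.7 FPKM in KO MCECs (log2 fold change -0.56). Genes of the HES family on this list went both ways. *Hes6* was lower (log2 fold change -0.62). *Hes7* was higher (2.70, adjusted p = 0.0031) but rested on very few reads, at 0.50 normalized counts in EV and 4.08 in KO MCECs.

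Of 7 vasoactive, anticoagulant and antiangiogenic genes, 3 had a row, and *Nos3*, *Edn1*, *Ednrb* and *Thbd* had none. *Thbs1* encodes thrombospondin-1, a secreted inhibitor of angiogenesis. Its normalized counts were 1266, 1397, 1391 and 1418 in EV and 814, 770, 785 and 794 in KO libraries, a wide gap compared with the spread in either group. *Thbs1* fell by 0.79 on the log2 scale (SE 0.04, adjusted p = 1.8e-18), 1.73-fold. *Procr*, the receptor that presents protein C for activation, had 1167, 1257, 1215 and 1309 normalized counts in EV and 1552, 1653, 1668 and 1587 in KO libraries. It rose by 0.38 on the log2 scale (SE 0.04, adjusted p = 4.9e-11) with no overlap. *Ece1*, the enzyme that makes active endothelin from its precursor, fell only slightly, from 3905 ± 162 to 3555 ± 119 (log2 fold change -0.14, SE 0.03, adjusted p = 0.00015), with its highest KO library (3636) just below its lowest EV library (3686).

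Among 6 transcription factors, *Ets1*, *Ets2* and *Tal1* had a row, and *Erg*, *Fli1* and *Lmo2* had none. *Tal1*, a helix-loop-helix factor of the blood and endothelial lineages, stood at 864, 833, 860 and 855 normalized counts in EV and 492, 516, 493 and 516 in KO libraries. With this small spread, its fall of 0.76 on the log2 scale (SE 0.05, adjusted p = 1.6e-16), 1.69-fold, was far larger than the difference between libraries of one group. Both ETS genes rose. *Ets2* had 1210, 1245, 1180 and 1166 normalized counts in EV and 1728, 1636, 1570 and 1702 in KO libraries (log2 fold change 0.47, SE 0.04, adjusted p = 2.1e-13). *Ets1* had a smaller difference, from 1694 ± 75.4 to 1969 ± 66.9 (log2 fold change 0.22, SE 0.04, adjusted p = 1.4e-06), which became 0.10 (adjusted p = 0.011) without the TMM factors.

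Other endothelial genes were read from a further list of 55, of which 24 had a row. Here 18 were lower and 6 were higher, with a median log2 fold change of -0.54, beside 0.06 over all genes. *Ptprb* is on this list as well as on the list of partners and is counted in both. The lowest with at least 100 normalized counts were *Icam1* (-1.37, SE 0.15), an adhesion molecule for leukocytes, *Flt4* (-1.35, SE 0.05), the receptor for VEGF-C, and *Foxc1* (-1.11, SE 0.08), a forkhead factor. The highest were *Klf4* (0.90, SE 0.03), a flow-responsive factor, *Gata2* (0.25, SE 0.08) and *Podxl* (0.23, SE 0.04), a sialomucin related to CD34. The EV and KO libraries of *Gata2* overlapped, and its call was lost without EV replicate 1, 3 or 4 or KO replicate 2, and without the TMM factors. These lists, like the members, hold only genes that the authors' selection let through, so their counts stand beside the background of 49.6% lower and 47.1% higher and were given no test.

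**Figure D4:**
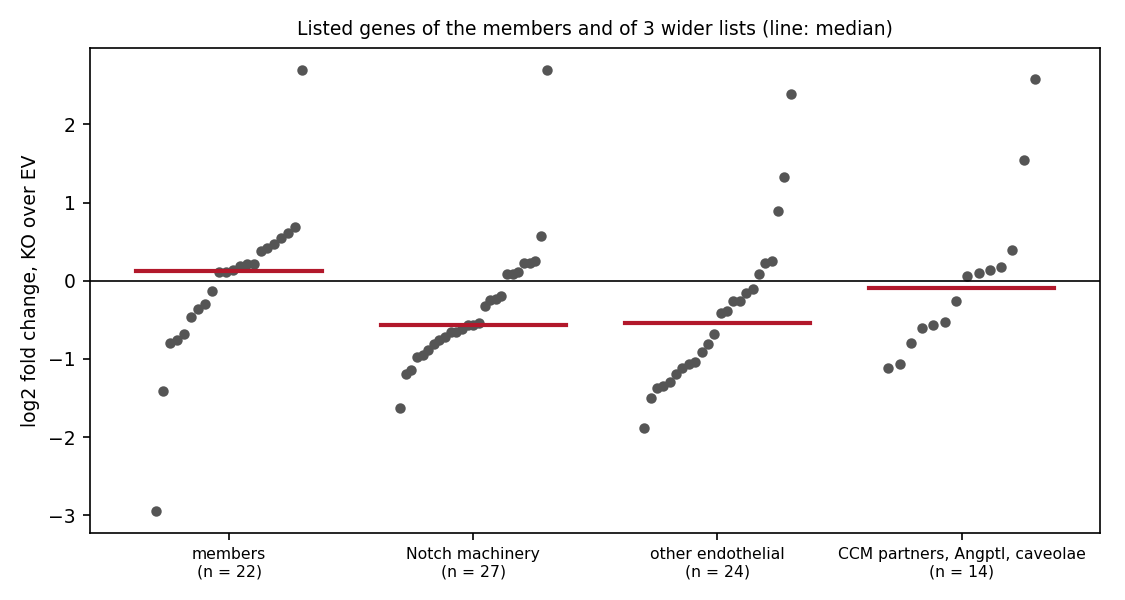
Log2 fold change of KO over EV MCECs (y axis) for each listed gene of the 46 members (22 with a row), the Notch machinery (27), other endothelial genes (24) and the list of CCM partners, angiopoietin-like and caveola genes (14), sorted within each list; red lines are medians. The medians lie at 0.13, -0.56, -0.54 and -0.10.

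The small differences depended on how the libraries were scaled. Scaling by library totals alone, without the TMM factors that correct for the composition of each library, moved the median over all genes by -0.12 on the log2 scale. Under this scaling 7 members were higher instead of 12, beside 32.3% of all genes, a share near that of the members. All 9 members that were lower stayed lower. The authors' size factors moved the median by 0.03 in the other direction, and 13 members were then higher, *Notch1* among them, beside 49.9% of all genes. Thus the falls of *Cd93*, *Tek*, *Thbs1*, *Tal1*, *Hey2* and *Hes1* and the rises of *Mcam*, *Rbpj*, *Heg1*, *Ets2*, *Cav1* and *Procr* held under each of the 3 scalings, whereas *Ccm2*, *Krit1*, *Notch2*, *Cav2* and *Ets1* did not pass without the TMM factors.

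**Figure D5:**
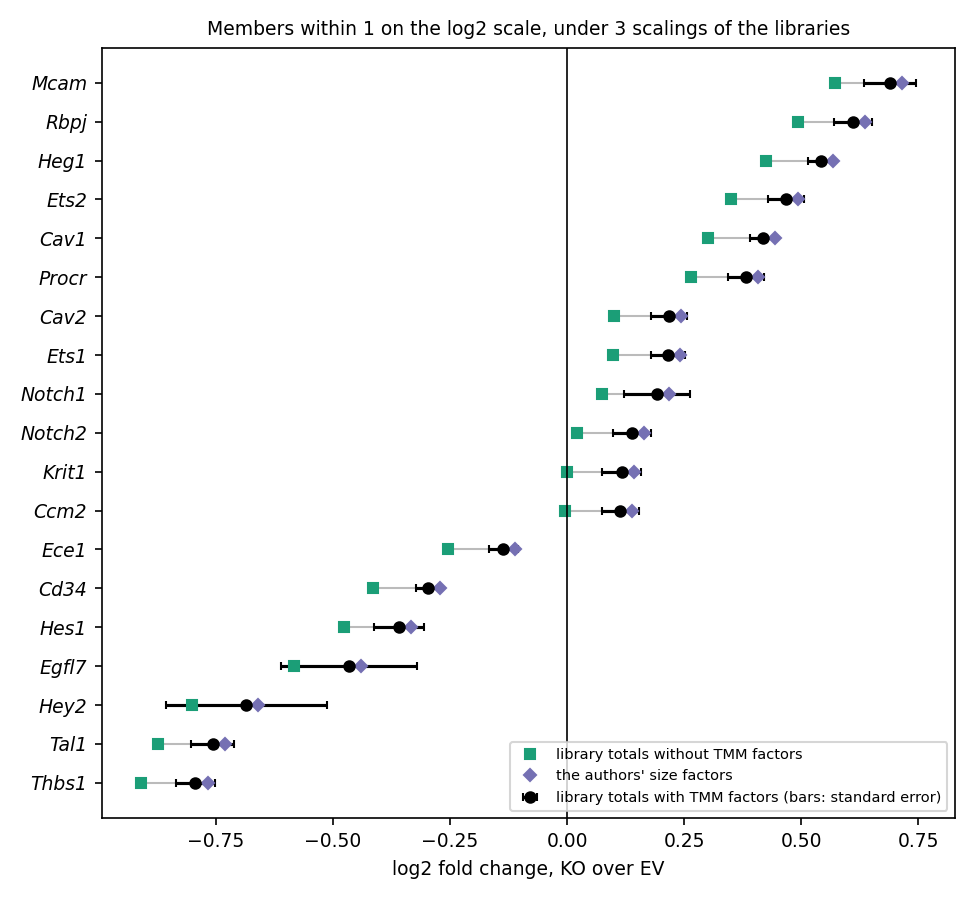
Log2 fold change of KO over EV MCECs (x axis) for the 19 members within 1 of 0, under library totals with TMM factors (circles, bars are standard errors), totals alone (squares) and the authors' size factors (diamonds). Squares lie to the left of circles throughout, and those of *Ccm2* and *Krit1* fall on 0.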

How the data were processed

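The 8 libraries were grouped as EV or KO from their titles. The members and gene lists were chosen with earlier results of these data known. RNA was sequenced by a provider (Illumina NextSeq500), and alignment by the authors used tophat2 and bowtie2 (mm10); the submitters' processing notes name CASAVA and DESeq 1.6.3. The methods also name lumi for the count matrix, and DESeq2 (calls at an adjusted p-value under 0.01) and cufflinks for differential expression. Which program assigned reads to genes, and with which annotation, is not given in the sources used here. The authors deposited raw read counts, FPKM values, group means scaled by size factors (a signal), and their own log2 fold changes and p-values; the last 3 kinds were not used as results. All genes in the deposited table have an authors' adjusted p-value under 0.05, and no table of the other genes was used here.

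Library totals were recovered from the deposited counts, lengths and FPKM values. The listed genes hold 84.3% to 85.9% of the total. KO and EV were compared with edgeR 4.0.16 (R 4.3.3): totals times TMM factors, quasi-likelihood test, no covariate, Benjamini-Hochberg adjustment over 8278 genes, cut-off 0.01, no filter. An SE is the log2 fold change divided by the root of the F statistic, and a 95% interval is the estimate with 1.96 SE on each side. Normalized counts are counts divided by total and TMM factor. The fit was tested on simulated data. Every member with a row was named, and from each wider list the 3 lowest and 3 highest genes past the cut-off whose mean reached 100 normalized counts in either group; other list genes were named after their values were seen. Exon overlaps were taken from GENCODE M21, and promoters from RefSeq GRCm38.p6. DESeq2 1.42.0, other scalings, a filter, each library left out and a wider adjustment were the alternatives. Members have 1.17% to 9.30% variation between libraries of one group (coefficient of variation, 17 members with at least 100 normalized counts in both groups).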

Additional observations from a re-analysis of the deposited data

Results flagged for a closer look

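*Rbpj* in EV MCECs had 1 library far from the others: EV replicate 2 had 991 normalized counts, and the other 3 lay between 909 and 921. The gap was 0.846 of the range of the group, over Dixon's critical value at 95% for 4 samples. This was 1 of 46 groups tested (the 22 members and *Hdac3* in EV and KO), of which chance gives 2.3. *Rbpj* kept its direction and call without this library.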

How the results depend on the processing

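Of the 22 members, 14 kept their direction and their side of the cut-off under every alternative run, among them *Cd93*, *Tek*, *Rbpj*, *Hes1* and *Hey2*. The other 8 (*Pecam1*, *Egfl7*, *Cav2*, *Ccm2*, *Krit1*, *Notch1*, *Notch2* and *Ets1*) crossed the cut-off or turned under at least 1. With library totals and no TMM factors, *Ccm2* (-0.0036) and *Krit1* (-0.00092) turned direction, the members higher in KO MCECs became 7, the members' median became 0.00999, and the higher genes became 3 in the Notch machinery and 3 in the list of CCM, angiopoietin and caveola genes. Over all genes the number that was higher went from 3895 to 2671 and the median from 0.06 to -0.06 under this scaling. The members' median was 0.15 with the authors' size factors and 0.13 to 0.15 when each library was left out. The count of members higher by more than 1 on the log2 scale was 1, *Pecam1* alone. This count became 0 under DESeq2, under the filter of 10 counts in 4 libraries and when adjusted over 30000 genes. It was 0 to 1 when each library was left out. Among members other than *Pecam1*, an alternative chosen after seeing the data, it was 0 by construction.

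Replicate numbers are shared by EV and KO. Over 7529 genes, the deviations of same-numbered libraries correlated at -0.09 to 0.10, beside -0.13 to 0.12 for other pairs. With so few pairs, this cannot show whether libraries of one number were prepared together, and the labels do not say what the number stands for. With the replicate block, *Krit1* had a log2 fold change of 0.12 (adjusted p = 0.0103), and no other member crossed the cut-off; over all genes 4106 were lower and 3866 higher, against 4107 and 3895 without the block. EV replicate 2 and KO replicate 2 correlated best with each other, and no other library with its own number. Depth limits *Pecam1*, *Tek*, *Hey2* and *Egfl7*, which had fewer than 100 normalized counts in each group. It also limits *Cd93* in KO MCECs, at a mean of 32.9 normalized counts.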
